A study of Homo sapiens with 11 samples.

Results

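The genes described here are 40 mesenchymal and extracellular matrix genes, listed by symbol and found among the 59087 genes counted in each library. The list was fixed by name and used no measured value. All 40 symbols had a row in the count files of all 11 libraries. They fall into 9 groups by role: fibrillar collagens, basement membrane collagens, collagens VI and XII, matrix glycoproteins, small leucine-rich proteoglycans, enzymes and inhibitors of crosslinking and proteolysis, the contractile cytoskeleton with vimentin, surface receptors with N-cadherin, and transcription factors.

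The extracellular matrix is a network of secreted collagens, glycoproteins and proteoglycans that cells build around themselves, crosslink with lysyl oxidases and remodel with proteases and their inhibitors. In breast tissue most of it is made by fibroblasts and myoepithelial cells, and luminal carcinoma cells make less. Carcinoma cells can switch on part of the same set when they lose epithelial features, a change known to be driven by the factors ZEB1, ZEB2, TWIST1 and SNAI2 and accompanied by vimentin and N-cadherin.

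The RNA came from 2 estrogen receptor positive breast cancer lines. BT483 is a ductal carcinoma line, grown in full serum before the experiment. T47D-TamR is a tamoxifen-resistant derivative of T47D that was made and propagated in tamoxifen, so each T47D-TamR group, untreated controls included, shares that history. Tamoxifen is an antiestrogen. The study lowered nemo-like kinase (NLK), a kinase related to the MAP kinases, with small interfering RNAs (siRNAs). It also tested VX-702, known as an inhibitor of p38 MAP kinase.

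All cells were first deprived of estrogen for 48 h in medium with 5% stripped serum. In the siRNA arm, each line was transfected at 10 nM for 72 h with non-targeting control siRNA, with NLK siRNA type 1, with NLK siRNA type 2, or with control siRNA together with 0.5 µM tamoxifen. In the drug arm, T47D-TamR cells were given DMSO alone, VX-702 at 0.5 µM, or tamoxifen at 0.5 µM in DMSO, without transfection. Their treatment time is not given in the sources used here. Each of these 11 groups is 1 library, 4 of BT483 and 7 of T47D-TamR, so no value below has a standard deviation of its own. Tests pool the spread over the fitted libraries. The labels give a separate dish to each RNA and do not say whether lines or conditions were repeated on other days, so p-values measure the spread between these samples alone.

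Total counts ran from 14637083 to 26915863 per library. The floor of 3 counts, below which a value is not told from 0, was 0.110 to 0.193 CPM (counts scaled to library size with TMM factors). NLK, the targeted gene, stood at 30.0 and 34.5 CPM in the BT483 libraries without NLK siRNA and at 8.51 and 5.41 CPM with type 1 and type 2. In T47D-TamR it stood at 28.1 to 33.1 CPM without NLK siRNA and at 10.3 and 12.2 CPM with it. The libraries carried their epithelial label: EPCAM was at 193 to 254 CPM, and all 12 luminal markers were above the floor. ESR1 was at 121 to 153 CPM in BT483 and 20.7 to 32.4 CPM in T47D-TamR. The BT483 type 2 library stood apart in interferon-induced genes, with IFI6 at 1152 CPM against 140 to 285 CPM in the other BT483 libraries. Its part in the member values below was not tested.

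In the account that follows, BT483 values are given in the order control siRNA, type 1, type 2, control siRNA with tamoxifen. T47D-TamR values follow the order control siRNA, type 1, type 2, control siRNA with tamoxifen, DMSO, VX-702, DMSO with tamoxifen. CPM compares 1 gene across libraries. Comparisons between genes use TPM, transcript levels divided by transcript length. In bulk RNA, fewer cells with a transcript and less transcript per cell cannot be told apart.

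The T47D-TamR libraries split the members into 16 that were expressed throughout, at 1 CPM or more in all 7 libraries, and 24 trace members, under 1 CPM in at least 1 of them. No member was at or under 3 counts in all 7. The contractile cytoskeleton was almost wholly in the first class, with 6 of 7 members, as were 3 of the 5 fibrillar collagens (COL1A1, COL5A1 and COL5A2), collagen VI α1 (COL6A1), collagen XII (COL12A1), FN1, TGFBI, THBS1, TIMP1 and TIMP3. All 4 transcription factors, all 4 surface proteins, all 3 proteoglycans and both basement membrane collagens were trace members. CNN1 was just inside the line at 1.03 CPM in its lowest library, and LOX and LOXL2 were just outside at 0.996 and 0.912 CPM. At 0.5 CPM the throughout class held 19 members, with LOX, LOXL2 and TWIST1 added, and at 2 CPM it held 14, without COL6A1 and CNN1.

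Most members stayed on the same side of this limit in BT483, and 8 crossed it. Of the 16 members expressed throughout in T47D-TamR, 12 were also at 1 CPM or more in all 4 BT483 libraries, 3 were trace there (COL5A2, TGFBI and ACTA2) and 1 was at the floor (CNN1). Of the 24 trace members, 4 were expressed throughout in BT483 (COL6A2, BGN, LOXL2 and VIM), 13 were trace and 7 were at the floor.

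**Figure D1:**
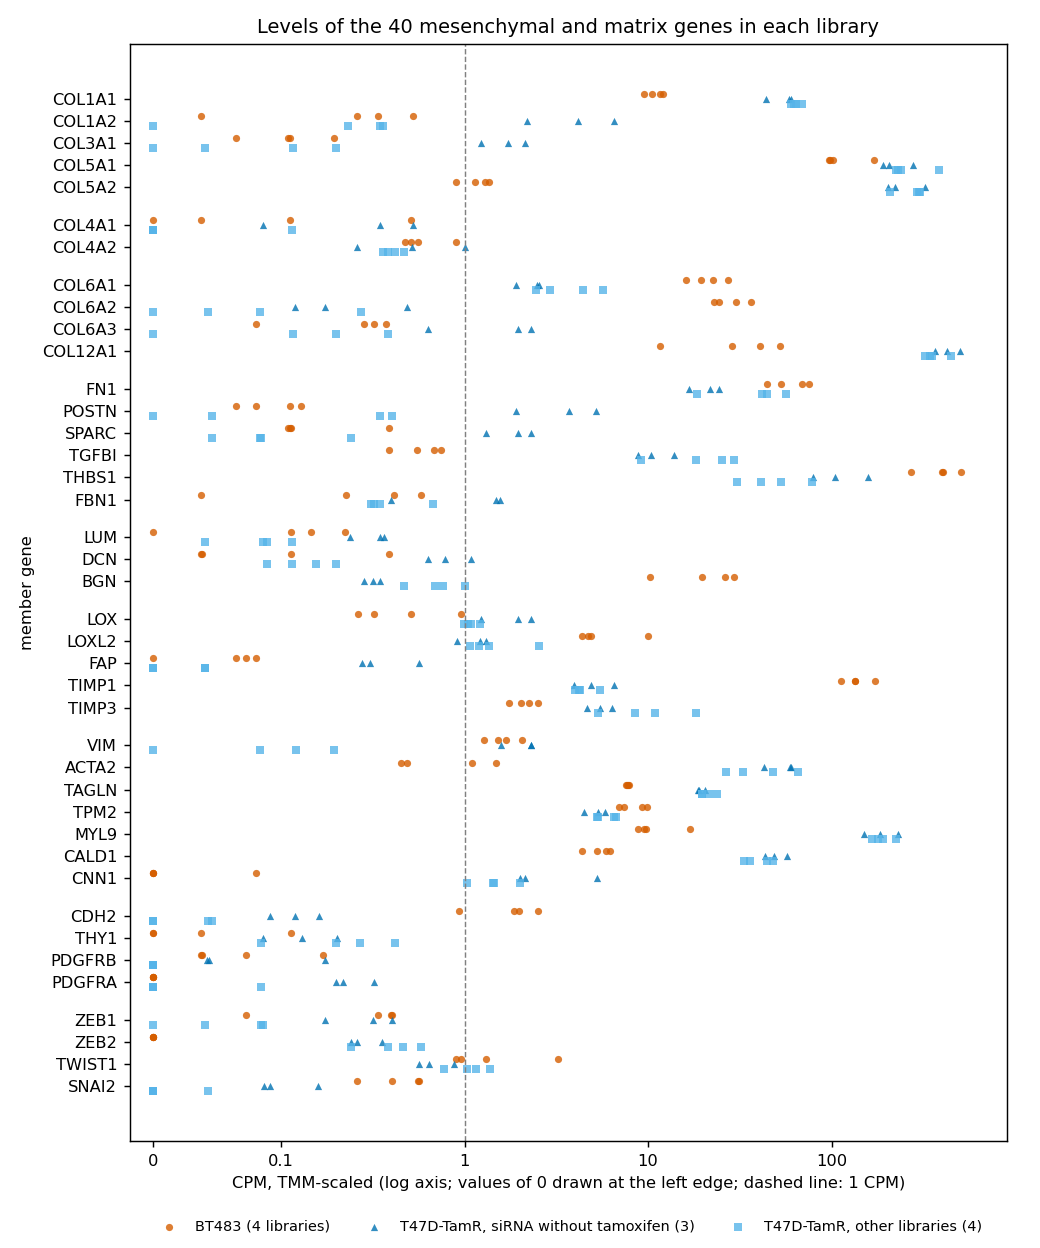
Levels of the 40 members in CPM on a log axis, 1 point a library, with BT483 in orange circles, the 3 T47D-TamR siRNA libraries without tamoxifen in dark blue triangles and the other 4 T47D-TamR libraries in light blue squares. Orange and blue are far apart for COL5A2, COL6A2, BGN, TIMP1, ACTA2 and CNN1, and dark and light blue separate for VIM, COL1A2, POSTN and SPARC.

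The first comparison asked which members differed between the lines, over the 8 siRNA libraries with the condition as a block. BT483 had less of the fibrillar collagen V partner COL5A2, of collagen XII and of 5 contractile genes, and more of collagen VI, biglycan, TIMP1, thrombospondin and fibronectin. Of 34 tested members, 27 passed 0.05 (edgeR quasi-likelihood F test, Benjamini-Hochberg over all genes), 11 higher and 16 lower in BT483. Of all 21990 genes tested, 70.7% passed, 35.6% higher and 35.1% lower, so the members' count is near the background in this fit. With no low-count filter it was further from the background, at 32 of 40 members against 47.1% of all genes. BT483 was kept in full serum and T47D-TamR in stripped serum with tamoxifen, so the line and its culture history cannot be told apart. The 6 members not tested for low counts were LUM, FAP, PDGFRA, ZEB2, PDGFRB and THY1. Among the 39 members with at least 20 counts over all 11 libraries, the ranges of the lines did not overlap for 22, with BT483 above for 9 and T47D-TamR above for 13. The same held for 53.0% of all genes.

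**Figure D2:**
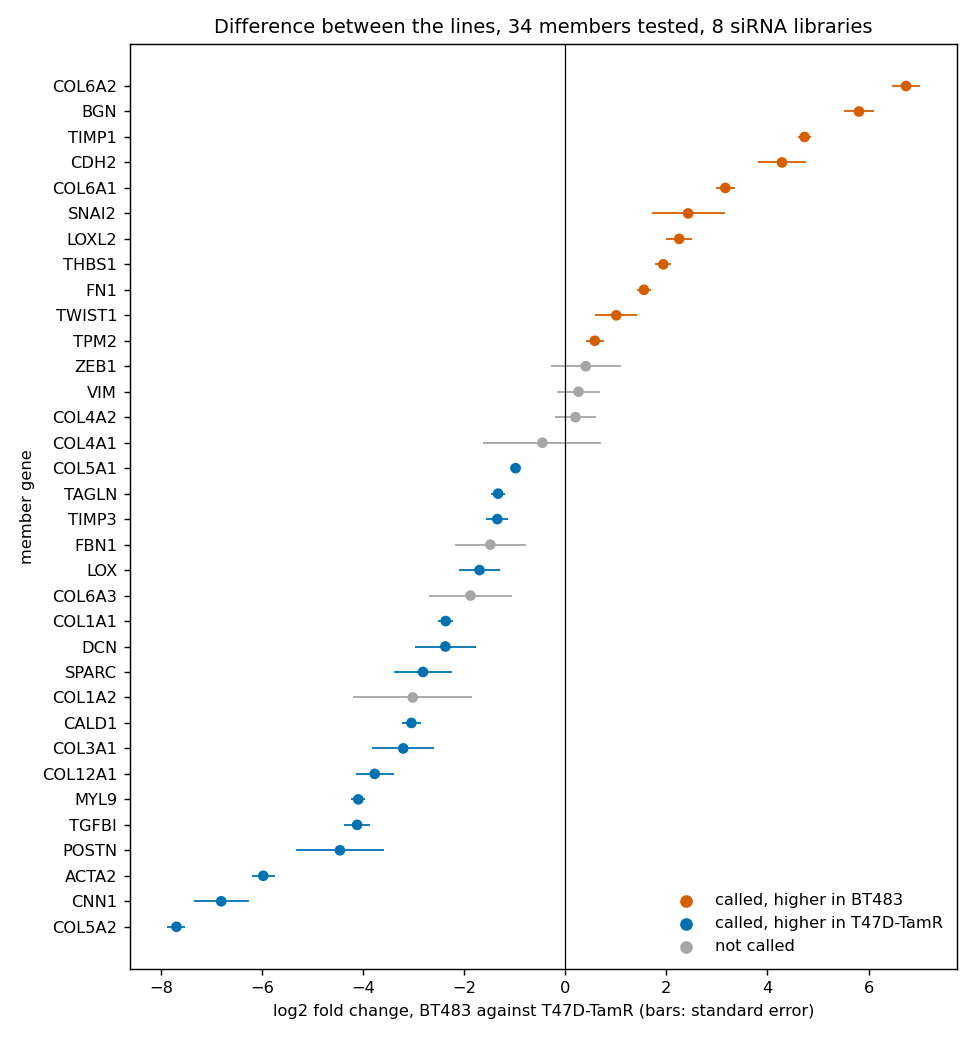
Log2 fold change of BT483 against T47D-TamR for the 34 members tested, with bars for the standard error, orange where BT483 was higher and blue where T47D-TamR was higher at an adjusted p under 0.05, and grey where the test was not passed. The changes span -7.69 for COL5A2 to 6.74 for COL6A2.

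Among the fibrillar collagens, 4 of 5 were lower in BT483 and none was higher, where 35.1% of all genes were lower and 35.6% higher. COL5A2 encodes the α2 chain of collagen V, which regulates the diameter of collagen I fibrils, and lies on the minus strand of chromosome 2 at 189031896 to 189225312 (GRCh38). It was at 1.36, 1.29, 1.13 and 0.895 CPM in BT483. In T47D-TamR it was at 223, 204, 322, 208, 294, 305 and 299 CPM, so the lowest T47D-TamR library was far above the highest of BT483. The log2 fold change was -7.69 (SE 0.18, edgeR adjusted p = 1.22e-10), and the pooled siRNA libraries gave 209 times more in T47D-TamR (exact 95% interval for counting error 172 to 258).

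COL5A1, its α1 partner, was at 98.2, 102, 170 and 96.7 CPM in BT483 and at 191, 206, 277, 229, 225, 384 and 240 CPM in T47D-TamR. The lines did not overlap, and the difference was -0.98 on the log2 scale (SE 0.12, edgeR adjusted p = 1.3e-05). Per length, COL5A1 and COL5A2 were of one order in T47D-TamR, with COL5A1 at 0.502 to 0.825 times COL5A2 in TPM. In BT483 COL5A1 was 47.3 to 97.9 times COL5A2.

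COL1A1 encodes the chain that makes up most of the collagen I trimer. It was at 12.1, 10.5, 11.6 and 9.51 CPM in BT483 and at 44.1, 58.7, 60.4, 62.7, 60.1, 68.9 and 63.9 CPM in T47D-TamR, with no overlap (log2 fold change -2.37, SE 0.15, edgeR adjusted p = 8.58e-08). Its partner COL1A2 did not accompany it. In T47D-TamR COL1A1 held 12.0 to 17.7 TPM, while COL1A2 held 0.524, 1.46, 1.07, 0.0568, 0.0902, 0 and 0.0818 TPM. The ratio of the chains ran from 10.2 in the type 1 library to 306 with control siRNA and tamoxifen, and with VX-702 COL1A2 had 0 counts against 1645 of COL1A1. In BT483 the ratio was 20.7 to 359, resting on 1 to 14 counts of COL1A2.

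COL3A1, the chain of collagen III, was at 1, 3, 3 and 3 counts in BT483 and at 31, 43, 49, 3, 5, 0 and 1 counts in T47D-TamR. The test called it lower in BT483 (-3.21, SE 0.61, edgeR adjusted p = 0.000614), and the call rests on the 3 transfected T47D-TamR libraries without tamoxifen, since the tamoxifen pair held 3 counts in each line. COL1A2 had a similar fold change of -3.02 (SE 1.17) and did not pass (edgeR adjusted p = 0.0739).

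The basement membrane collagens COL4A1 and COL4A2 were low in both lines. COL4A2 had 9, 14, 13 and 15 counts in BT483 and 13, 25, 6, 12, 9, 10 and 10 in T47D-TamR. COL4A1 never passed 9 counts in BT483 or 13 in T47D-TamR. Neither passed the line test (0.20, SE 0.41, and -0.45, SE 1.17).

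Collagen VI, a beaded microfibril built from α1, α2 and α3 chains, went the other way. COL6A2, on the plus strand of chromosome 21 at 46098097 to 46132849, was at 22.9, 30.2, 36.3 and 24.2 CPM in BT483 and at 0.119, 0.483, 0.174, 0.271, 0.0400, 0 and 0.0766 CPM in T47D-TamR. The log2 fold change was 6.74 (SE 0.27, edgeR adjusted p = 2.84e-09). In pooled counts of the siRNA libraries BT483 was 109.6 times higher (exact 95% interval 74.6 to 168). The gene beside it, COL6A1, was at 19.4, 22.7, 27.4 and 16.1 CPM in BT483 and at 1.90, 2.49, 2.56, 2.44, 2.92, 5.65 and 4.41 CPM in T47D-TamR (3.17, SE 0.18, edgeR adjusted p = 4.07e-08).

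The α3 chain was close to the floor. COL6A3 had 5, 5, 2 and 10 counts in BT483, or 0.0112 to 0.0553 TPM, beside 8.79 to 15.4 TPM of COL6A1 and 13.0 to 20.4 TPM of COL6A2. COL6A1 was therefore 159 to 1378 times COL6A3 in BT483. COL6A3 did not pass the line test (-1.88, SE 0.82, edgeR adjusted p = 0.069).

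**Figure D3:**
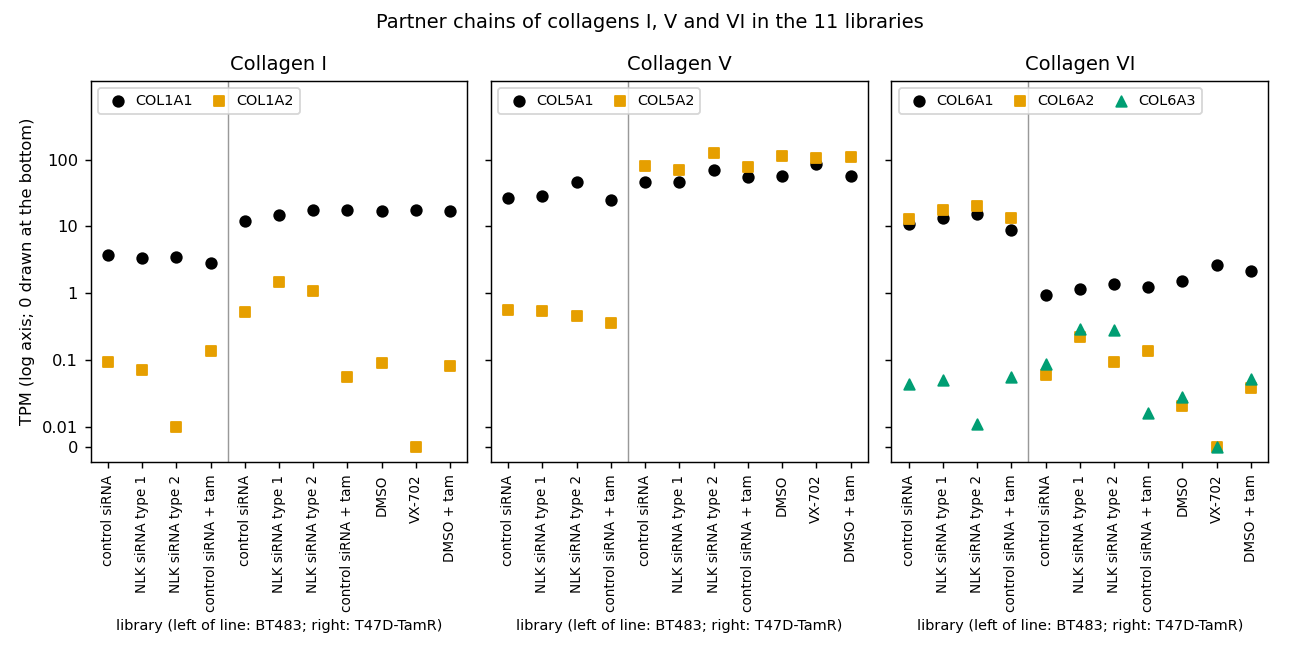
TPM of the partner chains of collagens I, V and VI in each library on a log axis, with values of 0 at the bottom and a line between BT483 and T47D-TamR. COL1A2 lies under COL1A1 in all 11 libraries, COL5A2 is level with COL5A1 in T47D-TamR alone, and COL6A1 and COL6A2 are level in BT483 alone, where COL6A3 is at 0.0553 TPM or less.

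COL12A1, a collagen that attaches to the surface of fibrils, was in T47D-TamR at 364, 427, 502, 324, 352, 448 and 346 CPM. In BT483 it was at 52.1, 40.9, 28.6 and 11.6 CPM, the lowest with tamoxifen. The line difference was -3.77 (SE 0.38, edgeR adjusted p = 0.000526).

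Matrix glycoproteins split by line. THBS1, thrombospondin-1, a matricellular protein that can activate latent TGF-β, was at 404, 506, 399 and 272 CPM in BT483 and at 79.6, 104, 159, 78.1, 41.3, 53.2 and 30.6 CPM in T47D-TamR (1.94, SE 0.16, edgeR adjusted p = 1.52e-06). THBS1 overlaps FSIP1 on the other strand, with 80 counts over T47D-TamR and 3061 over BT483, against 13373 and 33194 for THBS1. FN1, fibronectin, was at 69, 52.8, 75.2 and 44.7 CPM in BT483. In T47D-TamR it was at 16.8, 21.6, 24.4 and 18.5 CPM in the siRNA arm and at 44.5, 41.6 and 56.1 CPM in the drug arm. Fibronectin was higher in BT483 within the siRNA arm (1.55, SE 0.14, edgeR adjusted p = 1.73e-06), yet the drug-arm libraries reached into the BT483 range, so all 11 libraries together overlapped.

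TGFBI, a secreted adhesion protein named for its induction by TGF-β, was at 0.679, 0.387, 0.548 and 0.746 CPM in BT483. It was at 8.76, 10.4, 13.8, 9.10, 18.2, 29.6 and 25.2 CPM in T47D-TamR, with no overlap (-4.12, SE 0.26, edgeR adjusted p = 9.06e-08).

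POSTN (-4.46, SE 0.87, edgeR adjusted p = 0.00206) and SPARC (-2.81, SE 0.58, edgeR adjusted p = 0.00103) were also called lower in BT483. Periostin and SPARC are matricellular proteins typical of fibroblasts and osteoblasts. Both calls rest on the transfected T47D-TamR libraries without tamoxifen. In the tamoxifen pair POSTN had 3 counts in BT483 and 0 in T47D-TamR, and SPARC had 3 and 2. FBN1, the fibrillin of elastic microfibrils, did not pass (-1.48, SE 0.70, edgeR adjusted p = 0.0799).

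Of the small leucine-rich proteoglycans, which bind collagen fibrils, biglycan (BGN) was a BT483 gene at 26.3, 19.6, 29.4 and 10.3 CPM. In T47D-TamR it was at 0.317, 0.282, 0.347, 0.465, 0.760, 1.00 and 0.690 CPM (5.81, SE 0.30, edgeR adjusted p = 2.18e-08). Decorin (DCN) was called lower in BT483 (-2.37, SE 0.61, edgeR adjusted p = 0.00432) on 1 to 6 counts there and 16, 27, 18 and 4 in the T47D-TamR siRNA arm. Lumican (LUM) had at most 9 counts in any library and was not tested.

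TIMP1 and TIMP3, inhibitors of matrix metalloproteases, went in opposite directions. TIMP1 was at 134, 113, 171 and 133 CPM in BT483 and at 3.96, 4.87, 6.51, 5.46, 4.0, 4.23 and 4.25 CPM in T47D-TamR (4.73, SE 0.14, edgeR adjusted p = 2.41e-10). TIMP3 was at 2.04, 1.74, 2.52 and 2.24 CPM in BT483 and at 6.34, 4.67, 5.47, 5.30, 8.52, 18.1 and 11 CPM in T47D-TamR (-1.34, SE 0.22, edgeR adjusted p = 0.000168). Neither range overlapped.

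The collagen crosslinking enzymes LOX and LOXL2 were also split. LOX was lower in BT483 (-1.70, SE 0.41, edgeR adjusted p = 0.00279), at 17, 5, 14 and 7 counts against 31, 57, 45, 28, 26, 29 and 26. LOXL2 was higher in BT483 (2.25, SE 0.26, edgeR adjusted p = 1.22e-05), at 4.70, 4.9, 10.0 and 4.36 CPM against 0.912, 1.21, 1.30, 1.36, 1.2, 2.55 and 1.07 CPM. LOXL2 shares sequence on the same strand with ENTPD4, which had 11156 counts over T47D-TamR and 3180 over BT483. FAP, the fibroblast activation protease, had at most 2 counts in BT483 and 14 in T47D-TamR.

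Of the 7 contractile and vimentin genes, 5 were lower in BT483, 1 (TPM2) was higher and VIM did not pass, where 35.1% of all genes were lower and 35.6% higher. ACTA2, smooth muscle α-actin, a marker of myofibroblasts and myoepithelium, was at 0.453, 1.48, 1.10 and 0.485 CPM in BT483 and at 42.6, 60.2, 59.6, 48.2, 33.0, 65.5 and 26.6 CPM in T47D-TamR. The difference was -5.97 (SE 0.23, edgeR adjusted p = 2.17e-09), 61.9 times in pooled counts (exact 95% interval 49.2 to 78.9). ACTA2 overlaps FAS on the other strand, with 3422 counts over T47D-TamR and 162 over BT483, and its coding sequence is close to that of other actins, so its level is uncertain to the extent that reads were shared.

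CNN1, calponin, which binds actin in smooth muscle, had 0, 0, 2 and 0 counts in BT483 and 54, 50, 121, 52, 36, 34 and 27 in T47D-TamR (-6.81, SE 0.55, edgeR adjusted p = 5.52e-07). On 277 against 2 pooled counts in the siRNA libraries the ratio was 122 (exact 95% interval 33.5 to 1014). MYL9, the regulatory myosin light chain, was at 9.73, 8.84, 17.0 and 9.47 CPM in BT483 and at 150, 184, 229, 190, 165, 226 and 178 CPM in T47D-TamR (-4.09, SE 0.14, edgeR adjusted p = 8.88e-10). All 3 of these genes were without overlap between the lines.

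CALD1, caldesmon, was at 4.36, 5.87, 6.21 and 5.26 CPM in BT483 and at 56.9, 43.5, 48.4, 33.5, 47.9, 44.3 and 36.0 CPM in T47D-TamR (-3.04, SE 0.19, edgeR adjusted p = 7.41e-08). TAGLN, transgelin, held 7.6 to 7.86 CPM in BT483 and 18.7 to 23.7 CPM in T47D-TamR, the tightest ranges of the set (-1.33, SE 0.15, edgeR adjusted p = 7.2e-06). TAGLN overlaps PCSK7 on the other strand, with 20057 counts over T47D-TamR and 4626 over BT483, against 3551 and 674 for TAGLN. The strand setting of counting is not given, so the level of TAGLN is uncertain to the extent that reads were shared. TPM2, a tropomyosin, was the exception, at 9.28, 7.35, 6.95 and 9.88 CPM in BT483 and 4.47 to 6.66 CPM in T47D-TamR (0.58, SE 0.17, edgeR adjusted p = 0.00983).

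Vimentin (VIM), the intermediate filament of mesenchymal cells, did not pass the line test (0.26, SE 0.43, edgeR adjusted p = 0.597). It was at 1.53, 1.68, 2.05 and 1.27 CPM in BT483. In T47D-TamR it was at 1.59, 2.29 and 2.30 CPM in the 3 transfected libraries without tamoxifen and at 0.194, 0.120, 0 and 0.0766 CPM in the other 4. The ranges of the lines met without tamoxifen, and the tamoxifen pair held 34 and 5 counts. VIM overlaps VIM-AS1 on the other strand, with 0 counts over T47D-TamR and 89 over BT483, against 160 and 143 for VIM.

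N-cadherin (CDH2) was called higher in BT483 (4.29, SE 0.48, edgeR adjusted p = 8.33e-06), with 33, 39, 54 and 25 counts against 3, 4, 2, 0, 1, 1 and 0. THY1 and the PDGF receptors, which mark fibroblasts and pericytes, had at most 10 counts in any library, and PDGFRA had 0 counts in all 4 BT483 libraries.

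The transcription factors were low in both lines. SNAI2 had 10, 4, 11 and 15 counts in BT483 and 4, 2, 2, 0, 1, 0 and 0 in T47D-TamR, and was called higher in BT483 (2.43, SE 0.72, edgeR adjusted p = 0.0101). Without the BT483 tamoxifen library its adjusted p was 0.0558. TWIST1 was at 0.962, 0.903, 3.22 and 1.31 CPM in BT483 and 0.564 to 1.38 CPM in T47D-TamR, with overlap. Its call (1.01, SE 0.41, edgeR adjusted p = 0.0465) was lost without the BT483 type 2 library (0.46, adjusted p = 0.339), without the T47D-TamR type 2 library (0.44, adjusted p = 0.321), with DESeq2 (adjusted p = 0.0639) and with limma (adjusted p = 0.209). ZEB1, at no more than 11 counts in BT483 and 10 in T47D-TamR, did not pass. ZEB2 had 0 counts in each BT483 library and 6 to 15 in T47D-TamR.

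Other genes of the matrix pathway were counted on lists chosen beside the members. Of 12 tested enzymes of collagen synthesis, 7 were lower in BT483 and 1 higher. CRTAP (-2.49, SE 0.13), part of the prolyl 3-hydroxylation complex, and the lysyl hydroxylase PLOD1 (-2.11, SE 0.12) were the lowest, and the prolyl 4-hydroxylase subunit P4HA2 (1.47, SE 0.12) was the one that was higher. Of 15 tested matrix receptors, 10 were higher in BT483, led by the integrins ITGB8 (4.73, SE 0.32) and ITGB6 (3.41, SE 0.39), and 2 were lower. Of 20 TGF-β signalling genes, 7 were higher and 7 lower. They included the ligand TGFB1 (5.16, SE 0.26) and the coreceptor TGFBR3 (-7.13, SE 0.29). Of 14 matrix proteases and inhibitors, 7 were higher, among them the membrane-bound MMP16 (5.01, SE 0.20), and 5 were lower, among them urokinase PLAU (-5.81, SE 0.20). Of 11 epithelial laminins and matrix genes, 5 were higher, among them LAMC1 (7.90, SE 0.22), and 3 were lower. These shares stand against the same 70.7% of all genes.

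A second pattern lay within T47D-TamR. The trace members with at least 20 counts over the 7 libraries, 21 of the 24, summed to 15.4, 31.5 and 24.9 CPM in the 3 transfected libraries without tamoxifen. In the other 4 libraries they summed to 6.51 (control siRNA with tamoxifen), 7.20 (DMSO), 8.37 (VX-702) and 6.93 CPM (DMSO with tamoxifen). The 3 libraries held 71.2% of the summed level. For genes outside the list with at least 100 counts, their median share was 43.0%. Of the 37 members with at least 20 counts in T47D-TamR, expressed throughout or trace, 13 had all 3 libraries above all other 4, where 4.7% of the 23338 genes with as many counts did. Of these, 12 were trace members: COL1A2, COL3A1, COL6A3, POSTN, SPARC, LUM, DCN, LOX, FAP, VIM, PDGFRA and ZEB1. Trace members were chosen for a low level in at least 1 of these libraries, and some reached 20 counts through the 3 high libraries alone, so the share of trace members that separated is a description. No test was run on this split, which was described with its result known.

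The individual counts were low, and the step was wide for some members and narrow for others. COL1A2 had 55, 163 and 96 counts in the 3 libraries and 6, 9, 0 and 9 in the other 4. POSTN had 48, 130 and 85 against 0, 10, 1 and 9. VIM had 40, 57 and 53 against 5, 3, 0 and 2. In each of these genes the lowest of the 3 was at least 4 times the highest of the others.

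SPARC had 33, 57 and 45 counts against 2, 6, 1 and 2. COL6A3 had 16, 57 and 45 against 3, 5, 0 and 10. DCN had 16, 27 and 18 against 4, 5, 2 and 3. The surface receptor PDGFRA had 5, 8 and 5 against 2, 0, 0 and 0, and FAP had 7, 14 and 7 against 1, 0, 0 and 1. The last 2 are close to the floor. LOX had 31, 57 and 45 counts against 28, 26, 29 and 26, so that 1.23 CPM in the lowest of the 3 stood against 1.21 CPM in the highest of the 4. ZEB1 had 8, 10 and 4 against 2, 2, 0 and 1. These 2 members barely separated.

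**Figure D4:**
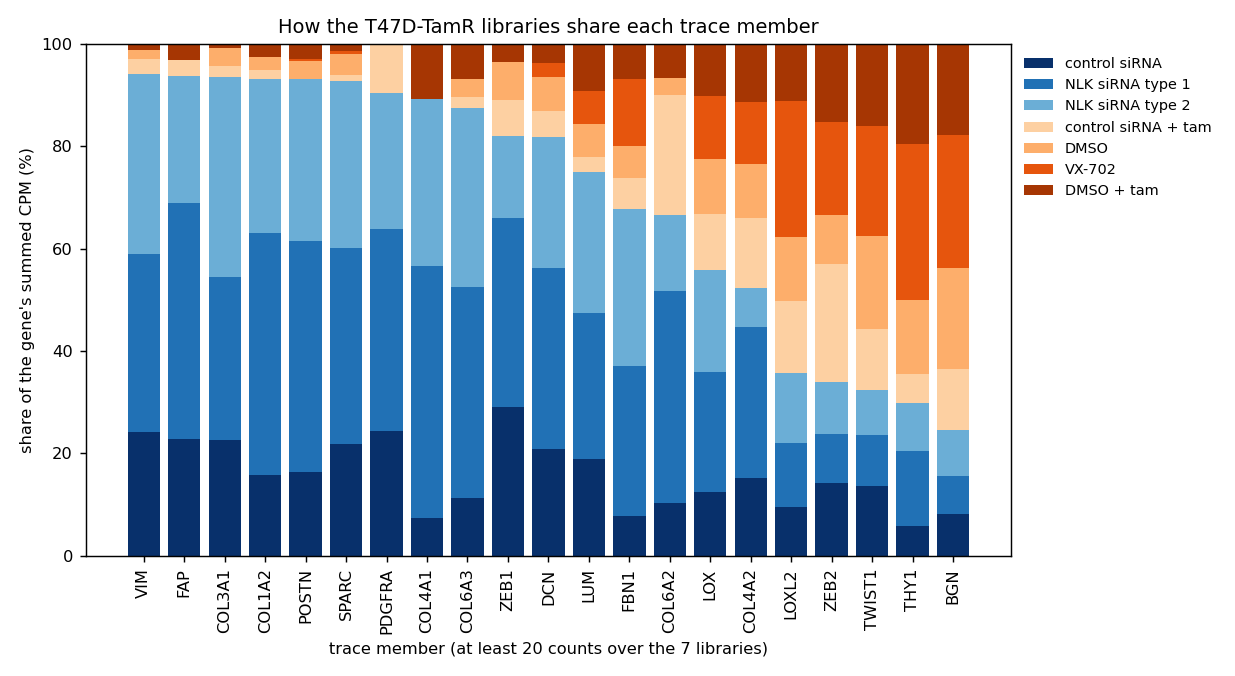
Share in percent of each trace member's summed CPM held by each T47D-TamR library, for the 21 trace members with at least 20 counts, with the 3 transfected libraries without tamoxifen in blues and the other 4 in orange shades. From VIM to DCN the blues take over 80% of the bar, and from LOXL2 to BGN they take 35.6% or less.

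The 3 libraries took over 80% of the level for 11 of the 21: COL1A2 (93.2%), COL3A1 (93.5%), POSTN (93.2%), SPARC (92.7%), VIM (94.1%), FAP (93.7%), PDGFRA (90.5%), COL4A1 (89.2%), COL6A3 (87.5%), ZEB1 (82.0%) and DCN (81.9%). PDGFRA (20 counts over the 7 libraries), COL4A1 (26), ZEB1 (27) and FAP (30) owe nearly all of those counts to the 3 libraries, so their shares say little. Of 17128 genes outside the list with at least 100 counts, 12 had over 80% in the 3 libraries. Those genes passed a higher minimum and were not classed on their level, so the counts are not like for like.

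The library shares of some members lay close to those of COL1A2, a reference chosen after its values were seen. The index of dissimilarity between the 7 library shares of POSTN and COL1A2, the sum of absolute differences divided by 2, was 4.0%. It was 9.10% for FAP, on 30 counts, 10.7% for COL6A3 and 10.7% for SPARC. These were the nearest trace members, and the index reached 63.4% for THY1 and 68.8% for BGN. Genes outside the list had a median index of 50.8% to COL1A2. Both NLK siRNA libraries were above the control siRNA library for 16 of the 21 members, and type 1 was the highest of the 3 for 14. Over all 21, control siRNA with tamoxifen was below control siRNA alone for 17, and in the drug arm DMSO with tamoxifen was below DMSO for 11. The 21 were classed on a low level in these same libraries, and some owe most of their counts to the 3 libraries. These orders are therefore partly set by the choice of members. No share over all genes stands beside them, so they are a description and were not tested.

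Some trace members did not follow. BGN had 8, 7 and 8 counts in the 3 libraries and 12, 19, 24 and 18 in the other 4. LOXL2 (35.6%), ZEB2 (34%), TWIST1 (32.3%) and THY1 (29.9%) also had a low share in the 3 libraries, and COL4A2 had 52.3%. Among the members expressed throughout, THBS1 alone had all 3 libraries above the other 4, at 79.6, 104 and 159 CPM against 30.6 to 78.1 CPM. COL1A1, COL5A1 and COL5A2 did not share the step of COL1A2 and COL3A1.

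In BT483 the same genes were at low counts under all 4 conditions. COL1A2 had 6, 4, 1 and 14 counts there, the highest with tamoxifen. POSTN had 1, 2, 2 and 3. VIM, at 27, 26, 56 and 34 counts, had no comparable step.

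By a fixed rule, the 15 genes outside the list with library shares nearest to those of the summed trace members, among genes with at least 100 counts, were RPL21P75 (dissimilarity 6.31%), AL139220.2, ADAMTS1 (7.77%), BIRC3 (9.62%), AC093277.1, C15orf48, GPAT3, BACH2, CAV1 (11.4%), VCX3B, GLDN, IL15RA, KRT16, RAB3IL1 and CD163L1. All genes compared had a median dissimilarity of 28.9%. With COL1A2 alone as the reference, a choice made after its values were seen, the nearest genes were BCAT1 (4.01%), GREM1 (4.31%) and CAV1 (17.0%), followed by CCL5 (21.4%), ISG15 (23.4%), ADAMTS1, INHBA, EIF5AP4, IFITM3, IFI6 (25.1%), RPL21P75, AC004551.1, GPAT3, HSH2D and IFI27 (26.8%). ISG15, IFITM3, IFI6 and IFI27 are interferon-induced genes. IFI6 was at 386, 525, 605 and 376 CPM in the T47D-TamR siRNA arm and at 82.5, 95.6 and 87.4 CPM in the drug arm. It was thus high in the whole siRNA arm, control siRNA with tamoxifen included. Transfection cannot be told apart there from other differences between the arms. The part of IFI6 in the trace pattern was not tested. GREM1, a secreted BMP antagonist, was at 3.09, 7.16 and 4.86 CPM in the 3 libraries and at 0 to 0.268 CPM in the other 4.

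Markers of other cell types were counted beside this pattern. Of 36 fibroblast markers outside the members, 6 were at or under 3 counts in all 11 libraries (COL5A3, PDPN, MFAP5, NNMT, DPT and SFRP2). Of the 22 with at least 20 counts in T47D-TamR, 6 had the 3 libraries above the other 4: PRRX1, CTHRC1, GREM1, CAV1, AXL and FBN2. The summed list stood at 668 to 1037 CPM in the 3 libraries and at 755 to 939 CPM in the other 4. S100A6 (348 to 790 CPM), LGALS1 (71.0 to 160 CPM), TNC (50.1 to 189 CPM) and FSTL1 (43.0 to 78.2 CPM) made up most of that sum in T47D-TamR, so it does not show the low markers. Of 12 endothelial markers, PECAM1, CDH5, TEK and EMCN were at or under 3 counts in every library, the list summed to 5.19 to 9.15 against 5.92 to 7.43 CPM, and 0 of 3 separated. Of 14 leukocyte markers, 7 including PTPRC and CD3E were at or under 3 counts, the list summed to 3.94 to 7.68 against 4.10 to 5.46 CPM, and 0 of 4 separated. Pericyte and smooth muscle markers summed to 263 to 366 against 343 to 429 CPM, with 1 of 5 separated. The part of any other cell in the trace pattern was not tested.

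The promoter windows of 4 members that share this step are shown, from 250 bases before the annotated start to 50 after it, as RefSeq gives them on GRCh38.p14, in the direction of the gene. Capitals mark TATAAA or its reverse complement TTTATA, and no window holds CACCTG, the core of the E-box bound by ZEB and SNAI factors, on either strand. POSTN lies at chr13:37598719-37599018, SPARC at chr5:151686866-151687165 and COL6A3 at chr2:237414115-237414414, all on the minus strand, and VIM at chr10:17227991-17228290 on the plus strand.
POSTN: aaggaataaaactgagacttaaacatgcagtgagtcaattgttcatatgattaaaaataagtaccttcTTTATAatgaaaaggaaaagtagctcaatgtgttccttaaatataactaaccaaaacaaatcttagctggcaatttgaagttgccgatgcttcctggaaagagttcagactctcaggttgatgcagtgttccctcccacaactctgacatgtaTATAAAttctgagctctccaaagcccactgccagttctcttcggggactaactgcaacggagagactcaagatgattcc
SPARC: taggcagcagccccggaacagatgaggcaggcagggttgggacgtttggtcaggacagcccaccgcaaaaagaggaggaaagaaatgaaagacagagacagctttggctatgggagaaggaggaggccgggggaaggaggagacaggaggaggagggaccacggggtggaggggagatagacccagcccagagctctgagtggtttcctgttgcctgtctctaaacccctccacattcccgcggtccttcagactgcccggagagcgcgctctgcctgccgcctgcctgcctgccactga
COL6A3: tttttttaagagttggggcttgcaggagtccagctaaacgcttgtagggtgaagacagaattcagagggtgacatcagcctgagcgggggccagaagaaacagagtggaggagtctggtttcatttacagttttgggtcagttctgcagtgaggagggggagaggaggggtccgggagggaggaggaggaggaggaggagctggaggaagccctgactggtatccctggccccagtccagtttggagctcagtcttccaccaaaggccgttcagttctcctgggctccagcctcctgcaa
VIM: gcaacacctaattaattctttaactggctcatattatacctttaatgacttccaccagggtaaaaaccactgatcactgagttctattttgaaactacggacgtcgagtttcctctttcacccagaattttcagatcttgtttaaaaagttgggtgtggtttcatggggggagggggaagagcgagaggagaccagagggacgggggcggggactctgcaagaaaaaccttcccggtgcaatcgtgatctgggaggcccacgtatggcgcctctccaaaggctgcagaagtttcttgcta

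The POSTN window holds TATAAA 29 bases before the start, and the other 3 windows hold no match. RefSeq windows were found for 26 of the 40 members, 42 windows in all. TATAAA on either strand stood in 4 of the 42 (CALD1, POSTN, CDH2 and COL6A2) and in 11.5% of 35116 promoters. CACCTG stood in 4 of the 42, in windows of LOX and ZEB1, and in 20.6% of all. A match is a run of letters and says nothing of binding.

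The knockdown of NLK was tested over both lines in an additive fit of all 11 libraries. None of 36 tested members passed (edgeR, Benjamini-Hochberg), and of 24023 genes 0.00416% passed, which was NLK itself (-1.75, SE 0.21, adjusted p = 0.0308). At an unadjusted p under 0.05 stood 6 of 36 members and 1331 of 24023 genes. DESeq2 and limma also called 0 members. The estimates leaned upward, with 29 of 36 positive and a median of 0.34, while 53.4% of all genes were positive with a median of 0.02. The 2 NLK siRNA libraries of a line share 1 control library, so the estimates within a line move together.

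The 6 members were ACTA2 (0.60, SE 0.22), COL6A2 (0.66, SE 0.27), COL6A1 (0.48, SE 0.20), THBS1 (0.41, SE 0.17), MYL9 (0.43, SE 0.20) and COL5A1 (0.40, SE 0.18), each at an edgeR adjusted p of 0.88. COL6A1 and COL6A2 stood above control siRNA with both siRNAs in both lines, COL6A2 on 3 to 12 counts in T47D-TamR. COL5A1 and MYL9 were high mainly with type 2: COL5A1 was at 102 CPM with type 1 and 170 with type 2 in BT483, from 98.2 with control siRNA, and at 206 and 277 in T47D-TamR, from 191.

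Within BT483, 0 of 36 members passed (background 0.00416%). At an unadjusted p under 0.05 stood 814 of 24023 genes and 3 members. These members were ACTA2 (1.46, SE 0.46), COL12A1 (-0.59, SE 0.22) and COL4A1, the last on 9 counts in the control and 1 or fewer with NLK siRNA. COL12A1 went from 52.1 CPM in the control to 40.9 CPM under type 1 and 28.6 CPM under type 2. By counting error alone, 4 members lay above control siRNA and 6 below with type 1 in BT483, where 8.77% and 9.7% of all genes stood. With type 2 there were 10 above and 4 below, against 14% and 14.4% of all genes, with TWIST1 at 3.34 times control (exact 95% interval 1.97 to 6.0) and COL12A1 at 0.549. Within T47D-TamR, 0 of 36 passed (background 0.00416%). NLK itself did not pass in this fit (-1.38, SE 0.24, edgeR adjusted p = 0.333), so the test missed the targeted gene. An unadjusted p under 0.05 was found for 1371 of 24023 genes. Of the 36 members, 7 had such a p, all positive. They were COL6A3 (2.26, SE 0.72), FBN1 (2.04, SE 0.79), COL1A2 (1.67, SE 0.63), THBS1 (0.62, SE 0.24), TGFBI (0.57, SE 0.26), FN1 (0.51, SE 0.21) and COL4A1 on 2 to 13 counts.

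In T47D-TamR the members were positive in 28 of 36 cases with a median of 0.41, against 0.04 over all genes. By counting error alone, the ratio to control siRNA was above 1 for 15 members and below for 4 with type 1 in this line, where 16.9% and 12.3% of all genes stood. With type 2 it was above for 16 and below for 1, against 18.1% and 14.8% of all genes. These intervals compare 1 library with 1 and include no difference between cultures.

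The difference of the knockdown effect between lines passed for 0 of 36 members (background 0.0%), with 5 at an unadjusted p under 0.05 by edgeR and 2 each by DESeq2 and limma. Across all genes 735 were under 0.05 unadjusted by edgeR, 352 by DESeq2 and 946 by limma. One of the 5 was COL4A1, on few counts. For LOX the difference was -1.95 (SE 0.75). LOX had 17 counts with control siRNA and 5 and 14 with NLK siRNA in BT483, and 31, 57 and 45 in T47D-TamR. COL12A1 differed by -0.98 (SE 0.29), ACTA2 by 1.10 (SE 0.51) and CALD1 by 0.70 (SE 0.32), each at an edgeR adjusted p of 1.

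Type 2 was compared with type 1 directly. None of 36 members passed (background 0.47%), and 6 had an unadjusted p under 0.05, as did 2191 of 24023 genes. COL5A1 was higher with type 2 (0.59, SE 0.15, edgeR adjusted p = 0.109), as were MYL9 (0.60, SE 0.17, adjusted p = 0.16), TIMP1 (0.52, SE 0.16, adjusted p = 0.24) and CNN1 (1.47, SE 0.49, adjusted p = 0.299). COL5A2 was also higher (0.45, SE 0.20, edgeR adjusted p = 0.517), and COL4A2 was lower (-1.38, SE 0.54, edgeR adjusted p = 0.424). TIMP1 was at 113 CPM with type 1 and 171 with type 2 in BT483, and at 4.87 and 6.51 CPM in T47D-TamR. CNN1 had 50 and 121 counts in T47D-TamR and 0 and 2 in BT483. SERPINH1, the collagen chaperone and the only one of the 12 enzymes of collagen synthesis to pass, was higher with type 2 (1.69, edgeR adjusted p = 0.00177), as were the proteases MMP16 (1.65, adjusted p = 0.0131) and PLAU (1.10, adjusted p = 0.0474). The interferon genes of the BT483 type 2 library move with this comparison, and their part was not tested.

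Tamoxifen was compared over 3 pairs, 1 in each arm and line. None of 36 members passed (background 0.0416%, 10 genes and all lower). At an unadjusted p under 0.05 stood 1590 of 24023 genes and 3 members. These members were SPARC (-2.26, SE 0.76, edgeR adjusted p = 0.49), COL3A1 (-2.10, SE 0.76, adjusted p = 0.545) and CDH2 (-1.31, SE 0.60, adjusted p = 0.746). DESeq2 and limma also called 0 members. The trace members, a class set on levels in these same libraries, had a median of -0.78, with 15 of 20 negative, and the members expressed throughout a median of 0.07.

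The low values of SPARC and COL3A1 sat in the T47D-TamR siRNA arm. SPARC went from 33 to 2 counts there, from 6 to 2 in the drug arm and from 2 to 3 in BT483. COL3A1 went from 31 to 3, from 5 to 1 and from 1 to 3. Without the T47D-TamR library of control siRNA with tamoxifen, the estimate for SPARC was -0.82 and that for COL3A1 was -0.64.

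The 3 pairs differed among themselves for the abundant members. In BT483 the ratio to control siRNA lay below 1 beyond counting error for 9 members and above for 0, where 16% and 14.5% of all genes stood. COL12A1 was at 0.223 of control (exact 95% interval 0.196 to 0.254), LOX at 0.271 on 7 counts, COL4A1 at 0.22 on 3 counts and BGN at 0.391 (0.336 to 0.455). FN1 was at 0.648 (0.598 to 0.703) and THBS1 at 0.673 (0.651 to 0.696).

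In the T47D-TamR siRNA arm, tamoxifen went with 5 members above 1 and 10 below (18.5% and 13.4% of all genes). COL12A1 was at 0.891 (0.865 to 0.918) and COL1A1 at 1.42 (1.32 to 1.53). In the drug arm 6 were above and 3 below (13.2% and 8.57% of all genes), with TGFBI at 1.38 (1.22 to 1.56), COL6A1 at 1.51 (1.12 to 2.05) and FN1 at 1.26 (1.17 to 1.37). CALD1 was below 1 in both T47D-TamR pairs, at 0.588 (0.540 to 0.640) and 0.751 (0.688 to 0.818).

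The siRNA arm of T47D-TamR was compared with its drug arm in the same additive fit. Transfection, treatment time and any other handling of the arms cannot be told apart here. FN1 was the 1 of 36 tested members that passed (background 0.0333%, with 0.0167% of genes higher and 0.0167% lower). It was lower in the siRNA arm by edgeR (-1.46, SE 0.21, adjusted p = 0.0392), as the 4 siRNA-arm libraries at 16.8 to 24.4 CPM lay under the 3 drug-arm libraries at 41.6 to 56.1 CPM. The estimate ran from -1.74 to -1.11 over the settings tried. The call was lost with at least 10 counts required in every library (adjusted p = 0.102) and with limma (-1.11, adjusted p = 0.518). It was also lost without the T47D-TamR libraries of control siRNA (0.281), type 1 (0.0905), control siRNA with tamoxifen (0.209), DMSO (0.447), VX-702 (0.0523) or DMSO with tamoxifen (1), given as edgeR adjusted p.

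Further members separated by arm without passing. THBS1 was higher in the siRNA arm (1.23, SE 0.20, edgeR adjusted p = 0.0701), with 78.1 to 159 CPM against 30.6 to 53.2 CPM. TGFBI was lower (-1.14, SE 0.25, adjusted p = 0.264), with 8.76 to 13.8 CPM against 18.2 to 29.6 CPM. COL6A1 had an estimate of -0.83 (SE 0.24, adjusted p = 0.718) and TIMP3 of -0.78 (SE 0.24, adjusted p = 0.746), also without overlap. VIM had an estimate of 3.31 (SE 0.76, adjusted p = 0.354), but its siRNA-arm library with tamoxifen, at 0.194 CPM on 5 counts, lay beside DMSO, at 0.120 CPM on 3 counts. In all 12 of 36 members had an unadjusted p under 0.05, as did 1227 of 24023 genes. Trace members, a class set on levels in these same libraries, had a median of 1.32, with 17 of 20 positive. Members expressed throughout had a median of -0.12, against 0.01 over all genes. The matched pairs of the arms differed for the trace members. Without tamoxifen the summed trace members were at 15.4 CPM with control siRNA and 7.20 CPM with DMSO, and with tamoxifen at 6.51 and 6.93 CPM. In the pair without tamoxifen 12 members lay above 1 and 10 below by counting error, where 13.2% and 11.9% of all genes stood. In the tamoxifen pair 5 members lay above 1 and 9 below, where 14.6% and 11.8% of all genes stood. The interferon-induced genes IFI6 (376 to 605 against 82.5 to 95.6 CPM) and IFI27 (368 to 522 against 67.1 to 97.0 CPM) also moved with the arm, and their part was not tested.

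**Figure D5:**
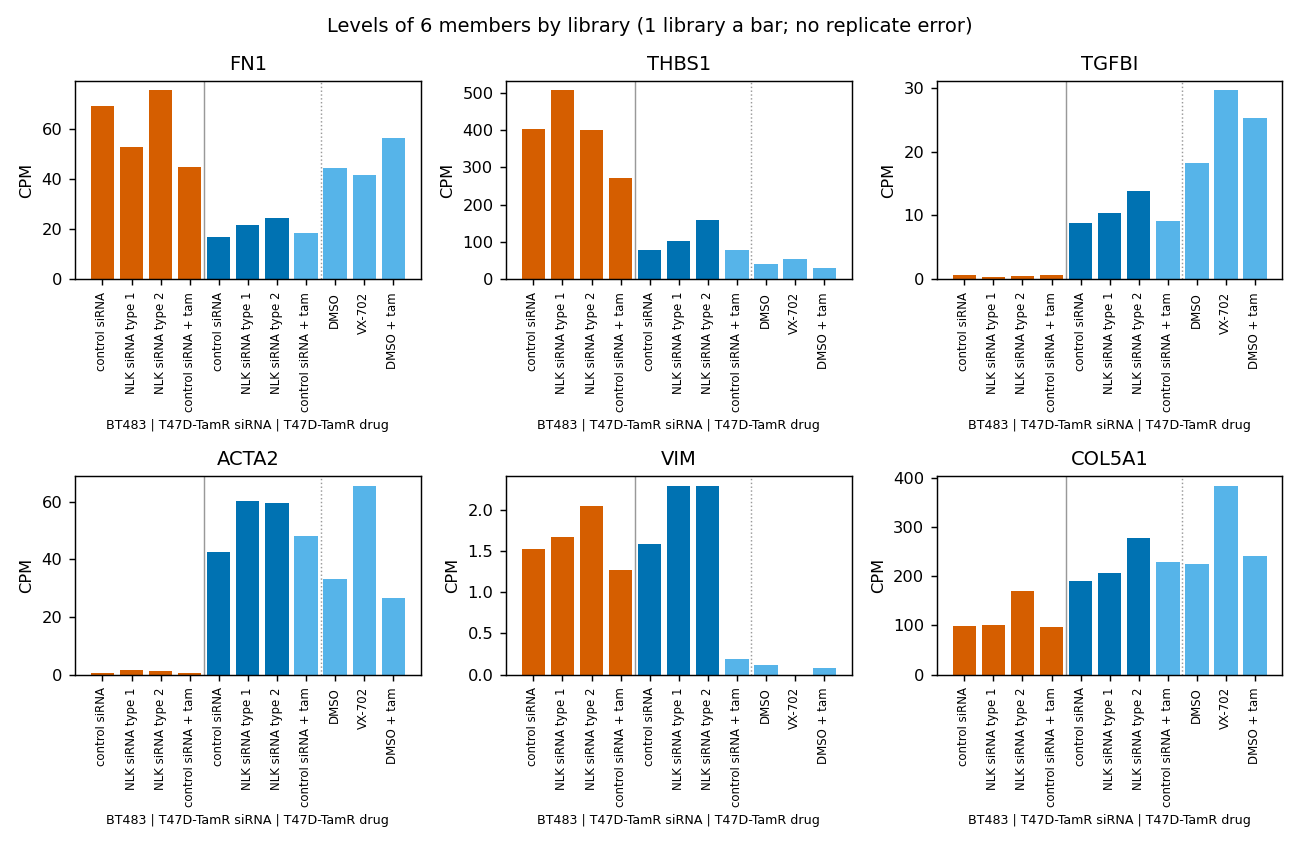
CPM of FN1, THBS1, TGFBI, ACTA2, VIM and COL5A1 in each library on linear axes from 0, 1 bar a library with no replicate error, BT483 in orange, T47D-TamR siRNA libraries without tamoxifen in dark blue and the other T47D-TamR libraries in light blue. A dotted line divides the T47D-TamR siRNA arm from the drug arm, at which FN1 and TGFBI step up and THBS1 steps down, while VIM falls 1 bar earlier, at control siRNA with tamoxifen.

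VX-702 was compared with DMSO as 1 library against 1 in T47D-TamR, with no test. Intervals for counting error put 11 members above 1 and 2 below, 23 held 1 and 4 had no counts in either library. Of all genes 17.5% were above and 11.9% below. TIMP3 went from 213 to 433 counts, a ratio of 2.13 (exact 95% interval 1.80 to 2.52). LOXL2 was at 2.13 (1.35 to 3.41), ACTA2 at 1.98 (1.82 to 2.16), COL6A1 at 1.93 (1.44 to 2.61), COL5A1 at 1.71 (1.65 to 1.76) and TGFBI at 1.62 (1.44 to 1.83).

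Smaller ratios above 1 were found for MYL9 (1.37), THBS1 (1.29), COL12A1 (1.27) and COL1A1 (1.15). COL5A2 stood at 1.04 (1.00 to 1.07) and fell to the other side of 1 when CPM were scaled by the library total or when the deposited log2 TPM values were used. The members below 1 were COL1A2, from 9 counts to 0, and POSTN, from 10 to 1. The VX-702 library is also the one in which VIM, COL3A1 and COL6A3 had 0 counts, from 3, 5 and 5 with DMSO. ACTA2, COL5A1, TIMP3, COL1A1, COL6A1, TGFBI and LOXL2 were at their highest T47D-TamR level with VX-702. So were BGN, TWIST1 and THY1, on low counts.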

How the data were processed

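Per the labels' protocols, stranded mRNA libraries of 11 samples were sequenced from both ends. The build was GRCh38 (per the submitters' processing notes). Aligner and strand setting of counting: not given in the sources used here. Deposited raw counts per gene by featureCounts were the basis of every edgeR test. The authors also deposited log2(TPM + 1) values, from which TPM was taken. A deposited series table of log2 values, already normalized between libraries, was used with limma as an alternative. In all, 0 columns were left unmapped.

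Tests used edgeR 4.0.16 in R 4.3.3 (TMM, filterByExpr, robust quasi-likelihood F test, 2-sided, Benjamini-Hochberg over all genes tested, threshold 0.05), checked on simulated data. The line fit used the 8 siRNA libraries blocked by condition. All other fits used 11 libraries with context (BT483, and each arm of T47D-TamR) as block and knockdown, tamoxifen and VX-702 as terms, with knockdown split by line or by siRNA type where those were compared. Each condition's single library is taken to have the spread of the rest. Log2 fold changes carry the SE implied by the F test. Ratios of 1 library to 1 have exact 95% conditional binomial intervals, which cover counting error only, since the counts carry no molecular identifiers.

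Alternatives were RLE scaling, a filter of at least 10 counts in every library, no filter (1 count in 2 libraries), DESeq2 1.42.0, limma 3.58.1, no block, each library left out, class limits of 0.5 and 2 CPM, CPM of the library total, and a minimum of 50 counts for shares. Full values were to be given for members at 1 CPM or more in every library of either line, for the 6 trace members with most counts and for called members. Positions are from GENCODE 29 on GRCh38. By that annotation 25 members overlap another gene, 23 on the opposite and 11 on the same strand. The members, lists and rules were chosen with earlier results of these data known.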

Additional observations from a re-analysis of the deposited data

Results flagged for a closer look

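For ACTA2 the tamoxifen pairs of T47D-TamR lay on opposite sides of no change, each beyond counting error. With tamoxifen it was at 113% of its control in the siRNA arm (exact 95% interval 104 to 123) and at 80.4% in the drug arm (72.6 to 89.1). COL1A1 was at 78.5% with tamoxifen in BT483 (65.2 to 94.6) and at 142% in the T47D-TamR siRNA arm (131.5 to 153). These differences were not tested, since each pair is 1 library against 1, and the intervals leave out the variation between cultures.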

How the results depend on the processing

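No paired analysis was possible because each group holds 1 library, numbered 1, so replicate numbers pair nothing within a group. The blocks in the fits are the condition (line difference) and the context (other comparisons). For the line difference, 27 members were called, 15 of 15 tested when every library needed at least 10 counts, and 27 to 31 with 1 library left out. Of all genes tested, 70.7% were called, 71.6% with at least 10 counts, 47.1% with no filter, and 61.9% to 65.8% with 1 library left out. Of 339 alternative values for the 27 members, 334 kept direction and call and 5 were weaker, 4 of them for TWIST1 and 1 for SNAI2. The 1 member called between the T47D-TamR arms became 0 with at least 10 counts or limma, 5 with no filter, 2 with DESeq2, and 0 to 2 with 1 library left out. Tamoxifen calls went from 0 members to 2 with no filter. Type 2 against type 1 went from 0 to 2 with no filter, 1 with DESeq2 and 0 to 1 with 1 library left out, where COL5A2 (0.45) ran from -0.018, without the T47D-TamR type 2 library, to 0.61. The cause of these changes was not tested. COL5A2 under VX-702 reversed to a log2 ratio of -0.047 with total scaling and -0.079 with log2 TPM. The 3 libraries held 71.2% of the summed trace members and 93.2% of COL1A2 alone, a setting added after seeing the data.

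Over all genes, with at least 10 counts, no filter, DESeq2, limma and no block in turn, the 1 call for knockdown became 0, 244, 6, 0 and 0, and the 10 calls for tamoxifen 0, 536, 120, 0 and 0 (0 to 81 with 1 library left out). With the first 4 of these settings, the 8 calls between arms became 0, 204, 45 and 0 (0 to 40), the 1 call in BT483 0, 168, 2 and 0 (0 to 149), the 1 call in T47D-TamR 0, 105, 7 and 0 (0 to 23), and the 113 calls between siRNA types 50, 373, 354 and 0 (0 to 406). The knockdown difference between lines went from 0 to 21 with no filter and 0 to 5 with 1 library left out. Knockdown with 1 library left out gave 0 to 2.

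Depth limits the trace members most: 3 counts are 0.110 to 0.193 CPM, and fold changes of genes at 0 in 1 group depend on the prior count of the fit. With 1 library a group, no condition has a replicate of its own.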
